A study of Bos taurus with 18 samples.

Results

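The change in messenger RNA over the first 2 h after heat was followed in MAC-T, a cell line that was immortalised from cow mammary epithelium. All genes expressed in these cells were compared between 3 libraries taken at the end of heat (HSD) and 3 libraries taken after recovery (D2R), 6 of the 18 libraries of the study. Libraries were paired by replicate number, which stands for 1 of 3 runs of the whole experiment. Of 30642 genes counted, 15158 had enough reads to be tested.

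Both groups were grown for 4 days at 37 °C in lactogenic medium, which held 5 µg/ml insulin, 1 µg/ml hydrocortisone, 5 µg/ml ovine prolactin and 10 µg/ml dexamethasone. HSD cells were then held at 42 °C for 1 h and collected. D2R cells received the same heat and were returned to 37 °C for 2 h before collection. Levels are set beside those of unheated cells in the same medium (NHSD) and of cells after 6 h of recovery (D6R), with 3 libraries each. Heated (HSUD) and unheated (NHSUD) cells in basal medium, which has the insulin and hydrocortisone without prolactin and dexamethasone, serve as a measure of heat in other libraries. HSD wells lay on plate II of each run and D2R wells on plate III, so recovery time and plate cannot be told apart. Each library is RNA of 2 technical replicates pooled, all from a single cell line, and a bulk level does not separate a change in every cell from a change in some cells.

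Heat unfolds proteins, and the transcription factor HSF1 then switches on cytosolic chaperones, their J-domain partners and ubiquitin, while transcription and splicing of many other genes slow down. Once cells cool, free chaperones bind HSF1 again, the heat-induced transcripts stop being made and unstable ones decay within hours. The endoplasmic reticulum (ER), where secretory cells such as the mammary epithelium fold milk proteins, has its own chaperones and its own alarm, the unfolded protein response.

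Levels are given as CPM, the counts of a gene scaled to a fixed library total. Total counts were 47.6 to 51.4 M per HSD library and 40.9 to 57.0 M per D2R library. Of 14 mammary epithelial marker genes 12 were tested and 0 were called different, and their summed level was 17747 to 22497 CPM in HSD and 16543 to 21111 CPM in D2R. The milk protein genes had at most 4 reads in any library. No marker of another cell type was called among 6 tested fibroblast, 3 endothelial and 4 leukocyte genes, and KDR, CLDN5, LYZ and ITGAM had 0 reads in all 6 libraries. The fibroblast list summed to 453 to 824 CPM in HSD and 454 to 783 CPM in D2R, and the leukocyte list to 106 to 120.3 CPM and 97.1 to 123 CPM. D2R replicate 1 stood apart from the other 2 D2R libraries. In it, 46 cytosolic chaperone genes took 1.66% of all counts, against 2.52% and 2.55% in D2R replicates 2 and 3, between 2.46% and 3.71% in HSD and 1.25% ± 0.07 in NHSD (SD, n = 3). Results that rest on it are therefore also given without it.

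Between HSD and D2R, 59 of 15158 genes (0.389%) were called different at an adjusted p under 0.05 by edgeR's quasi-likelihood test with the run as a block. Of these, 33 (0.218%) were higher and 26 (0.172%) lower after 2 h. These shares are the background for the counts of called genes in each gene list below. The lower genes changed by more: their median log2 fold change was -0.95 and reached -4.88, while the higher genes had a median of 0.79 and reached 2.13. At least a doubling was seen in 7 of the higher genes, and 12 of the lower genes fell to 50% or less. All 59 moved the same way in the 3 runs, and in 54 of them the HSD and D2R libraries did not overlap, as they did not in 9.03% of all tested genes. The test chose the 59 from these same libraries, so neither trait adds support for the calls. Leaving out D2R replicate 1 gave 70 called genes, while 37 were called without D2R replicate 2, 33 without D2R replicate 3, 35 without HSD replicate 2 and 26 without HSD replicate 3. Without the block, which then leaves the differences between runs in the error, 8 genes (0.0528%) were called: HSPA6, DNAJB1, CCDC117, USPL1 and the snoRNA feature LOC112441682 lower, and HSP90B1, TCIM and PLK2 higher.

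The strongest falls were in 2 members of the heat shock machinery. HSPA6, a stress-inducible HSP70 that unstressed cells barely make, had 3991, 2666 and 1919 CPM in HSD replicates 1 to 3 and 20.3, 138 and 118 CPM in the D2R libraries. Every D2R library lay far below every HSD library, and D2R replicate 1 was the lowest. The log2 fold change was -4.88 ± 0.71 (SE), a fitted 29.3-fold fall with an adjusted p of 0.0159. HSPA6 nevertheless remained 4.78 ± 0.74 log2 units above the 3.43 ± 0.353 CPM of NHSD (SD, n = 3; adjusted p 0.0358), and in D6R it stood at 24.8 ± 13.9 CPM. Its call between D2R and HSD was lost without HSD replicate 2 or 3 or D2R replicate 2 or 3 (adjusted p 0.0512 to 0.0735, log2 fold changes -4.98 to -5.38). The call was also lost when the HSD and D2R libraries were fitted alone. The HSPA6 fall was smaller without D2R replicate 1, at a log2 fold change of -4.23 (adjusted p 0.000428).

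DNAJB1, the J-domain co-chaperone that hands unfolded proteins to HSP70 and helps to silence HSF1, had 1969, 1294 and 1318 CPM at the end of heat and 126, 235 and 278 CPM after 2 h. The groups did not overlap, and again D2R replicate 1 was lowest. The log2 fold change of DNAJB1 was -2.81 ± 0.27 (adjusted p 0.000196), a fitted 7.01-fold fall, to a level 1.10 ± 0.26 log2 units above NHSD that missed the test against it (adjusted p 0.122). The DNAJB1 fall was -2.43 without D2R replicate 1 (adjusted p 4.16e-09). It was not called when the HSD and D2R libraries were fitted alone (adjusted p 0.328) or without run 2 (adjusted p 0.0942). HSPA1L, an HSP70 encoded beside HSPA1A, went from 4.53, 2.31 and 2.7 CPM to 1.66, 1.37 and 0.748 CPM (log2 fold change -1.32 ± 0.25, adjusted p 0.0159), which was near its 1.53 ± 0.28 CPM in unheated cells. The call of HSPA1L was lost without HSD replicate 1 or 3 or D2R replicate 3 (adjusted p 0.0884 to 0.121). HSPA1A, HSPA1L and HSPA6 are similar in sequence and may share reads, which leaves the split between them uncertain.

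**Figure D1:**
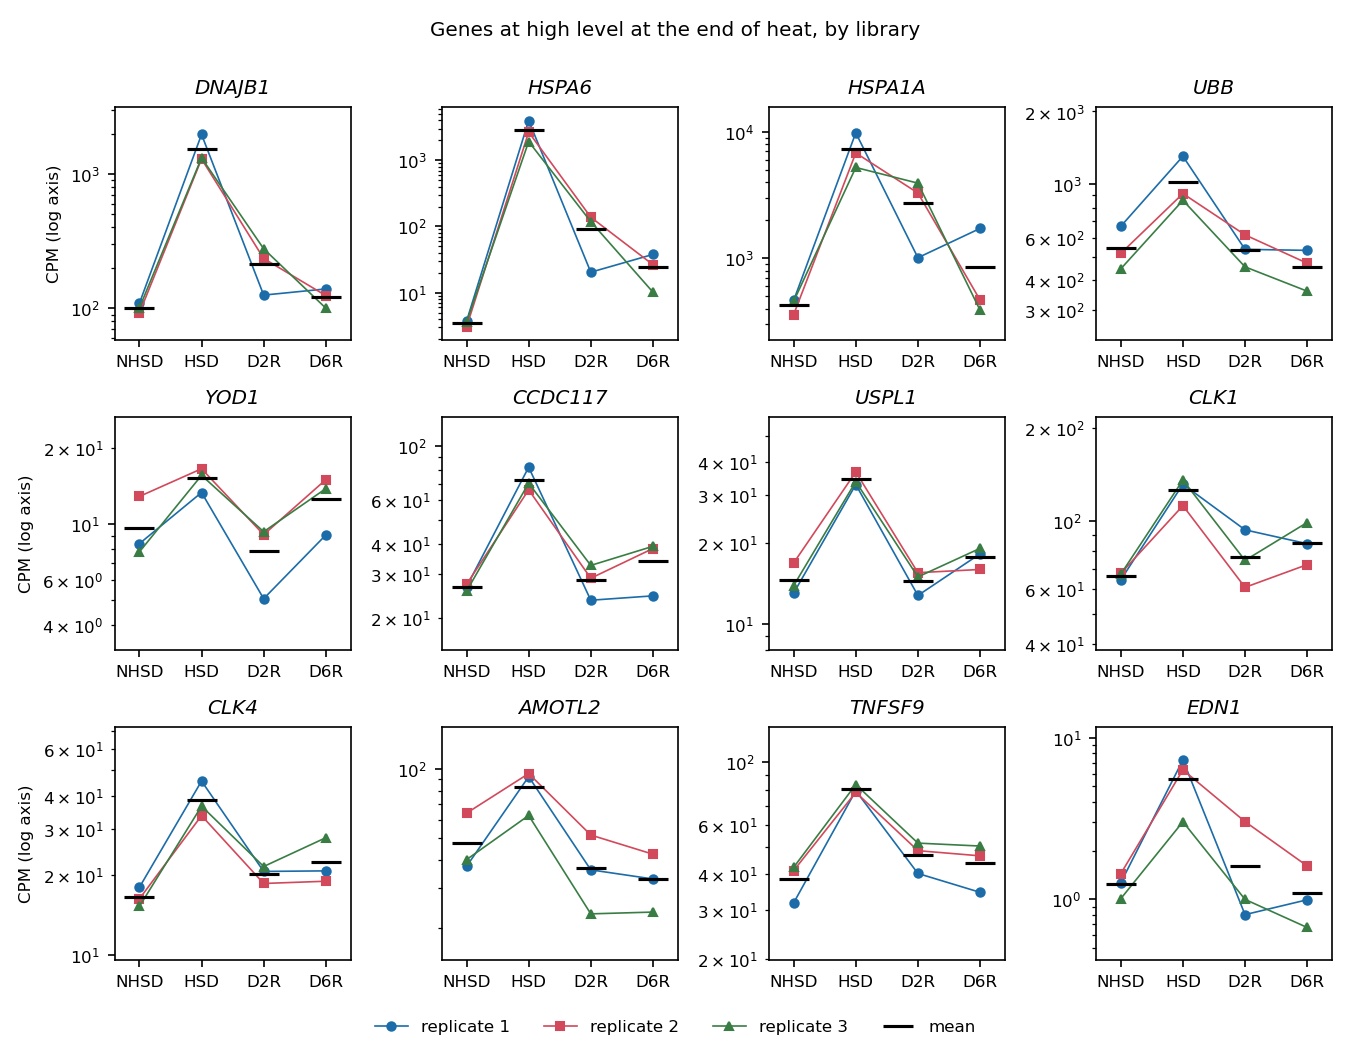
Level (CPM, log axis) of 12 genes that were high at the end of heat, in unheated cells (NHSD), at the end of heat (HSD) and after 2 h (D2R) and 6 h (D6R) of recovery. Points joined by lines are the libraries of a replicate number and bars are means of 3 libraries. The fall from HSD to D2R was called in all panels but that of HSPA1A, and in EDN1 a library of each group was level.

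Genes of protein disposal fell as well. UBB, which encodes a chain of ubiquitin units, had 1305, 914 and 857 CPM in HSD and 537, 616 and 454 CPM in D2R, a log2 fold change of -0.91 ± 0.11 (adjusted p 0.000187). The groups did not overlap, and after 2 h UBB was at its unheated level of 543 ± 114 CPM. Its fall kept the call whichever library was left out. Of the 32 tested ubiquitin and proteasome genes 30, among them the proteasome subunits, were not called, and the list's median log2 fold change was -0.05 beside -0.01 over all tested genes. YOD1, a deubiquitinase of the ER-associated degradation pathway, fell from 13.3, 16.5 and 15.6 CPM to 5.07, 9.07 and 9.32 CPM (-0.98 ± 0.19, adjusted p 0.018). Its call was lost without HSD replicate 1 or 3 or D2R replicate 1 or 2 (adjusted p 0.0635 to 0.157).

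CLK1 and CLK4, kinases that phosphorylate the SR proteins of the splicing machinery, fell together. CLK4 had 45.3, 33.6 and 36.5 CPM in HSD and 20.7, 18.6 and 21.6 CPM in D2R, a log2 fold change of -0.92 ± 0.14 (adjusted p 0.00235). CLK1 had 131, 112 and 136 CPM in HSD and 93.5, 60.9 and 74.5 CPM in D2R (-0.73 ± 0.11, adjusted p 0.00273). Without run 2 neither call held (adjusted p 0.0538 for CLK4 and 0.0526 for CLK1), and that of CLK1 was also lost without run 3 (0.13). The HSD and D2R libraries overlapped for neither gene. After 2 h CLK4 was 0.30 ± 0.14 and CLK1 0.19 ± 0.11 log2 units above their unheated 16.5 ± 1.39 and 66.4 ± 1.72 CPM. Neither difference was called (adjusted p 0.489 and 0.598), although every D2R library of CLK4 lay above every NHSD library. The other 13 tested members of the list of CLK kinases and SR factors were not called, and its median was -0.02. CCNT1, the cyclin of the elongation factor P-TEFb that releases paused RNA polymerase II, went from 59.6, 65.6 and 66.6 CPM to 41.6, 45.6 and 50.5 CPM (-0.48 ± 0.10, adjusted p 0.0439). The call of CCNT1 did not survive leaving out any 1 of the 6 libraries (adjusted p 0.078 to 0.223).

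The falls of CCDC117 and USPL1, genes outside the classical heat shock families, had the smallest adjusted p of all lower genes. CCDC117, a coiled-coil protein, dropped from 81.8, 66.2 and 70.4 CPM to 23.5, 28.9 and 32.6 CPM (-1.37 ± 0.14, adjusted p 2.61e-05), and its unheated level was 26.5 ± 0.849 CPM. USPL1, which removes SUMO from proteins, dropped from 32.9, 36.6 and 33.7 CPM to 12.7, 15.5 and 14.9 CPM (-1.26 ± 0.13, adjusted p 2.61e-05), and its unheated level was 14.6 ± 2.01 CPM. Both had returned to within 0.1 log2 units of unheated cells in 2 h. TNFSF9, a ligand of the tumour necrosis factor family, went from 79.3, 78.2 and 83.3 CPM to 40.3, 48.6 and 51.7 CPM (-0.79 ± 0.10, adjusted p 0.000226), and the libraries of each group lay close together.

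AMOTL2, a junctional scaffold and a target of the Hippo pathway's YAP, went from 92.6, 95.5 and 62.6 CPM to 36.1, 51.4 and 23.2 CPM (-1.22 ± 0.15, adjusted p 0.000149). It was the only called gene among 12 Hippo targets, whose median was -0.08. The matricellular gene CYR61 moved from 335, 271 and 142 CPM to 49.9, 150 and 47.5 CPM without passing the test (-1.66 ± 0.36, adjusted p 0.115), and HSD replicate 3 lay under D2R replicate 2. CTGF, its relative, had a log2 fold change of -0.90 ± 0.43 (adjusted p 0.571). EDN1, the precursor of the peptide endothelin, was chosen after its values were seen. It had 7.29, 6.33 and 3.02 CPM in HSD and 0.802, 3.02 and 0.997 CPM in D2R (-1.80 ± 0.34, adjusted p 0.0154). HSD replicate 3 and D2R replicate 2 were level, and the call was lost without HSD replicate 1 or 2 or D2R replicate 1 or 3 (adjusted p 0.0533 to 0.0916), with an estimate of -1.36 without D2R replicate 1.

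The remaining lower genes changed by log2 fold changes of -0.45 to -1.53, and those of them outside the rule for named genes are given to complete the account. They included the homeobox gene SIX4 (-0.79, adjusted p 0.0035), the single-stranded DNA-binding protein NABP1 (-0.90, adjusted p 0.0277), the death effector domain gene DEDD2 (-0.72, adjusted p 0.0439) and the cyclin CCNJ (-0.66, adjusted p 0.00902). They also included RNF227, KRBA2, FOXN2, ZBTB11 and TMEM209. RGS2_1, a regulator of G protein signalling (-0.87, adjusted p 0.0474), is 1 of 2 near-identical entries of RGS2 in the table, and its value is uncertain because reads may be split between them. Of these 10, the call held whichever library was left out for SIX4 alone, and the others reached adjusted p up to 0.391. Without run 2 the call of SIX4 was lost as well (adjusted p 0.0942). TMEM209 differed from the rest in that its unheated level, 42.7 ± 9.89 CPM, was close to that of HSD (41 ± 13.8 CPM). Its D2R mean lay under both, at 29.8 ± 8.47 CPM (log2 fold change to NHSD -0.53 ± 0.10, adjusted p 0.0224), although its HSD and D2R libraries overlapped.

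Most cytosolic chaperones were not called lower after 2 h. Over the lists of HSP70, HSP110 and BAG proteins, J-domain co-chaperones, HSP90 with its co-chaperones and small heat shock proteins, 43 genes were tested, of which HSPA6, HSPA1L and DNAJB1 were lower, 0 were higher and 40 were not called. Their median log2 fold change was 0.06. Over all tested genes 0.172% were called lower and 0.218% higher. HSPA1A, the main inducible HSP70, had 9818, 6802 and 5222 CPM in HSD and 1010.4, 3282 and 3927 CPM in D2R, against 427 ± 59.0 CPM in NHSD. The log2 fold change of -1.29 ± 0.59 (95% interval -2.60 to 0.01) missed the test (adjusted p 0.567). HSPA1A was lower in D2R in all 3 runs without overlap, but the paired differences ran from -3.28 in run 1 to -0.41 in run 3. Without D2R replicate 1 the HSPA1A estimate was -0.74 (adjusted p 0.85).

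HSPH1, the HSP110 that recharges HSP70 with nucleotide, had 814, 603 and 601 CPM in HSD and 370.2, 1259 and 1639.5 CPM in D2R (0.71 ± 0.55, adjusted p 0.792). BAG3, the co-chaperone that steers clients to autophagy, had 366, 225 and 184 CPM in HSD and 79.5, 469 and 512 CPM in D2R (0.37 ± 0.61, adjusted p 0.913). HSPB8, the small heat shock protein that works with BAG3, had 621, 414 and 569.9 CPM in HSD and 362, 907 and 1360.3 CPM in D2R (0.58 ± 0.32, adjusted p 0.668). For all 3 genes D2R replicate 1 lay under its HSD partner while D2R replicates 2 and 3 lay above theirs, so the direction of their change depended on the run. Their estimates without D2R replicate 1 were 1.24, 0.98 and 0.96, still not called (adjusted p 0.456, 0.666 and 0.129). HSP90AA1, the inducible cytosolic HSP90, had 2905, 2683 and 2321 CPM in HSD and 2618, 3550.1 and 3190.2 CPM in D2R (0.25 ± 0.12, adjusted p 0.564), and stood 1.24 ± 0.12 log2 units above NHSD after 2 h (adjusted p 1.34e-05). HSPA8, the constitutive HSP70, had an estimate of -0.55 ± 0.20 (adjusted p 0.411) and DNAJB4, a J-domain protein, of -0.94 ± 0.24 (adjusted p 0.168).

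Over the 43 chaperone genes the paired difference was below 0 for 34 genes in run 1, 17 in run 2 and 18 in run 3, with medians of -0.20, 0.14 and 0.05. The summed level of the HSP70, HSP110 and BAG list shows the same split: it was 23071, 17145 and 14336 CPM in HSD and 5550.5, 10466 and 12093 CPM in D2R, so D2R replicate 1 was within the 4094 to 5560.3 CPM of the unheated libraries and the others were not. Without D2R replicate 1, 5 further chaperone genes were called higher after 2 h. They were the J-domain genes DNAJA4 (0.76, adjusted p 0.00995) and DNAJA1 (0.81, adjusted p 0.0157) and the HSP90 partners AHSA2 (1.01, adjusted p 0.0102), FKBP4 (0.60, adjusted p 0.0321) and STIP1 (0.49, adjusted p 0.0169). With all libraries these 5 had log2 fold changes of 0.35 to 0.56 and were not called. The 3 called falls stood in both fits, but those of HSPA6 and DNAJB1 were not called when the HSD and D2R libraries were fitted alone. What set D2R replicate 1 apart was not tested.

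**Figure D2:**
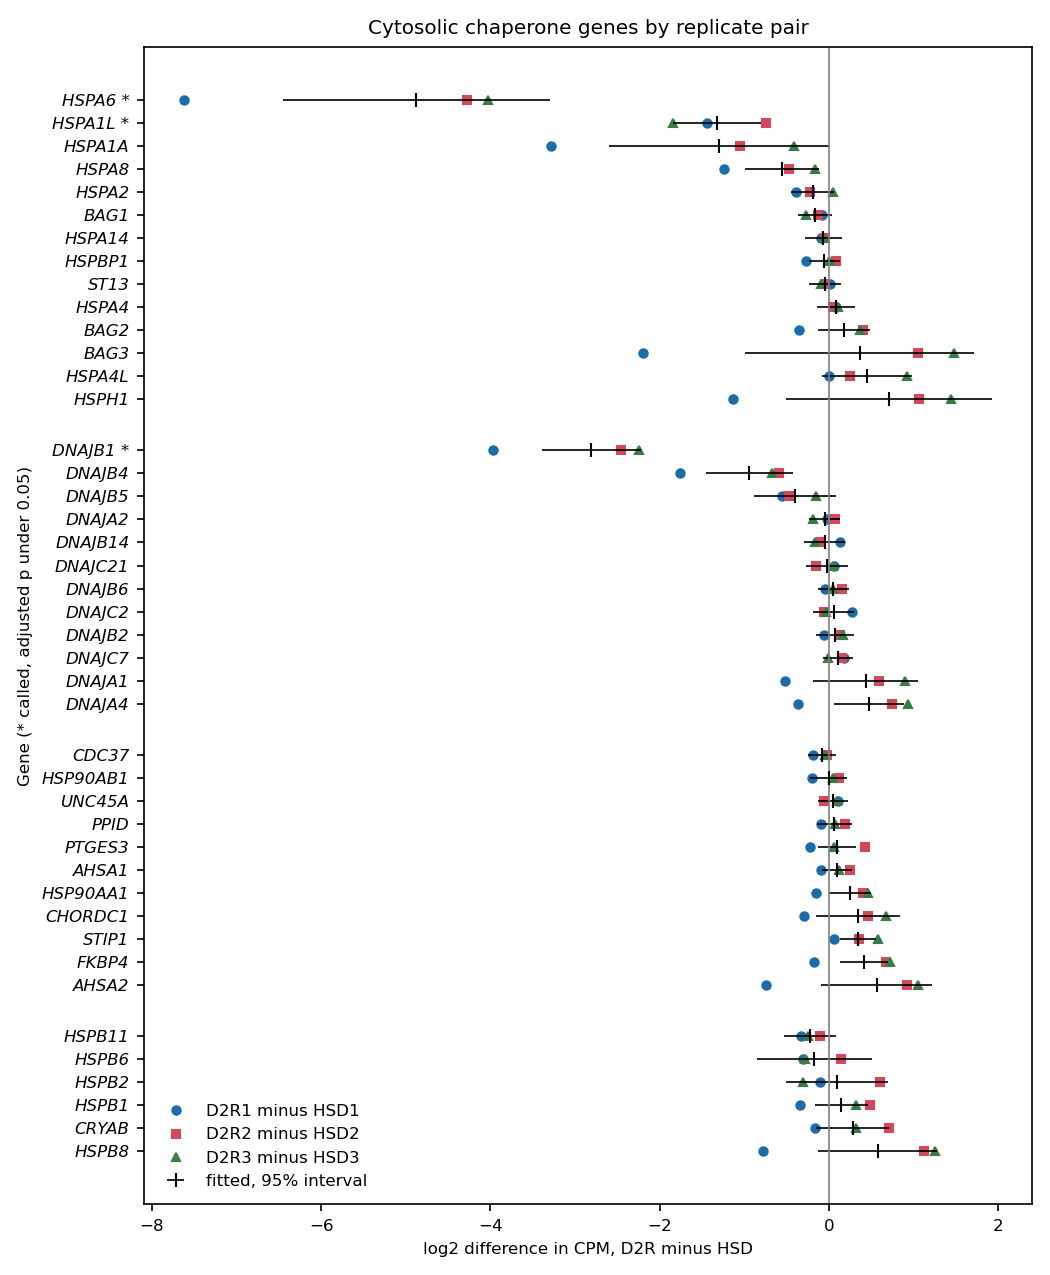
Log2 difference in CPM between D2R and HSD for 43 cytosolic chaperone genes, by replicate pair (symbols) and fitted with its 95% interval (black), in 4 blocks: HSP70, HSP110 and BAG; J-domain; HSP90; small heat shock proteins. The pair of replicate 1 lies left of the other pairs for HSPA1A, HSPH1, BAG3, HSPA8 and HSPB8, and the genes marked with an asterisk (HSPA6, HSPA1L and DNAJB1) were called.

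A second group of genes had lower means at the end of heat than in unheated cells and rose within 2 h. PLK2, a polo-like kinase induced by p53 and by growth factors, had 516, 519 and 438 CPM in HSD and 914, 980.05 and 946 CPM in D2R, a log2 fold change of 0.96 ± 0.11 (adjusted p 7.93e-05), near its unheated 834 ± 31.0 CPM. It was the only called gene among 16 tested genes of the p53 response and growth arrest, whose median was 0.00. TCIM, a small regulator of Wnt signalling, had 53.9, 67.4 and 50.8 CPM in HSD and 106, 126 and 91.7 CPM in D2R (0.91 ± 0.10, adjusted p 7.93e-05), and 81.0 ± 5.77 CPM unheated. The groups did not overlap for either gene, and both kept their call whichever library or run was left out.

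SGK1, a kinase switched on by glucocorticoids and one of 13 tested glucocorticoid targets, was the only one of them called. It had 24.8, 32.5 and 36.0 CPM in HSD and 45.5, 63.8 and 81.6 CPM in D2R (1.00 ± 0.11, adjusted p 7.55e-05), and in each run D2R was higher by 0.88 to 1.18. Its level without heat was 50.6 ± 13.6 CPM. DUSP1, a phosphatase of MAP kinases on the same list, had an estimate of 0.80 ± 0.26 that was not called (adjusted p 0.354), and the list's median was 0.04. Dexamethasone and hydrocortisone were in the medium of both groups throughout.

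Among 26 tested AP-1 and immediate early genes, JUNB alone was called. This AP-1 subunit had 81.8, 83.1 and 87.0 CPM in HSD and 145, 155 and 219 CPM in D2R (1.02 ± 0.12, adjusted p 0.000137), against 141 ± 39.8 CPM in NHSD. JUN, another subunit, moved the other way without passing the test: it had 301, 261 and 236 CPM in HSD and 94.1, 110.2 and 70.0 CPM in D2R (-1.55 ± 0.33, adjusted p 0.108), with no overlap and an unheated level of 92.7 ± 8.85 CPM. FOS had an estimate of 0.69 ± 0.15 (adjusted p 0.0576, and 0.0499 without D2R replicate 1) and the nuclear receptor NR4A2 of 0.99 ± 0.24 (adjusted p 0.115). The list's median was 0.14.

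KLF10, a zinc finger factor induced by TGF-beta, rose from 23.9, 42.9 and 41.9 CPM to 57.7, 67.7 and 69.9 CPM (0.88 ± 0.13, adjusted p 0.00158), still under its unheated mean of 85.0 ± 14.6 CPM. It was the only called gene of 11 tested KLF factors, all of which had estimates above 0, with a median of 0.37; KLF6 had 0.56 ± 0.15 (adjusted p 0.132). BHLHE40, a repressor that also belongs to the circadian clock, rose from 54.7, 92.5 and 81.9 CPM to 98.2, 162 and 157 CPM (0.86 ± 0.15, adjusted p 0.0115), and none of the other 15 tested clock genes was called. MIDN, which carries short-lived nuclear proteins to the proteasome, rose from 23.9, 26.1 and 25.6 CPM to 45.8, 48.3 and 48.3 CPM (0.92 ± 0.17, adjusted p 0.0179). Within each group the 3 MIDN libraries were almost level. KLF10 kept its call without any single library but lost it without run 2 (adjusted p 0.0538). The call of BHLHE40 was lost without HSD replicate 1 or 3 or D2R replicate 2 or 3 (adjusted p 0.0691 to 0.131), and that of MIDN without HSD replicate 2 or 3 or D2R replicate 1 (adjusted p 0.0975 to 0.172).

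Genes that stood in none of the lists were also called higher after 2 h. They included the Wnt receptor FZD10 (0.86 ± 0.14, adjusted p 0.0035), the CDC42 effector CDC42EP4 (0.78 ± 0.11, adjusted p 0.00067), the mammary transcription factor TBX3 (0.74 ± 0.13, adjusted p 0.0102) and the zinc finger factor OSR1 (0.70 ± 0.11, adjusted p 0.00362). FZD10 overlapped between groups in CPM, with 58.5, 52.9 and 102 in HSD and 119, 95.5 and 163 in D2R, yet rose in all 3 runs. The secreted protease ADAMTS1 (0.93 ± 0.16, adjusted p 0.00636) and the RNA-binding protein UNK (1.01 ± 0.19, adjusted p 0.016) rose at low levels, from means of 8.71 and 3.86 CPM in HSD to 16.4 and 7.79 CPM in D2R. The ADAMTS1 groups overlapped, with 12.1 CPM in HSD replicate 2 and 11.3 CPM in D2R replicate 1. CDC42EP4 and OSR1 kept their calls without any single library, but lost them without run 3 (adjusted p 0.0729) and run 2 (0.153), respectively. Of these 6 genes, the call was lost for TBX3 without HSD replicate 3 or D2R replicate 3 (adjusted p 0.128 and 0.0541), for ADAMTS1 without the same replicates (0.0694 and 0.0692), and for UNK without HSD replicate 2 or 3 or D2R replicate 1 or 3 (0.0586 to 0.189).

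Smaller rises of 0.41 to 0.75 on the log2 scale were called in ZBTB24, ZBED5, SCO2, ZNF746, POLI, LRRC8E and MID1IP1, most of them outside the rule for named genes and given to complete the account. SCO2 delivers copper to cytochrome c oxidase, POLI is a DNA polymerase that copies past lesions and LRRC8E is a subunit of the volume-regulated anion channel. None of these 7 kept its call without every single library, with adjusted p up to 0.273 when 1 was left out.

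**Figure D3:**
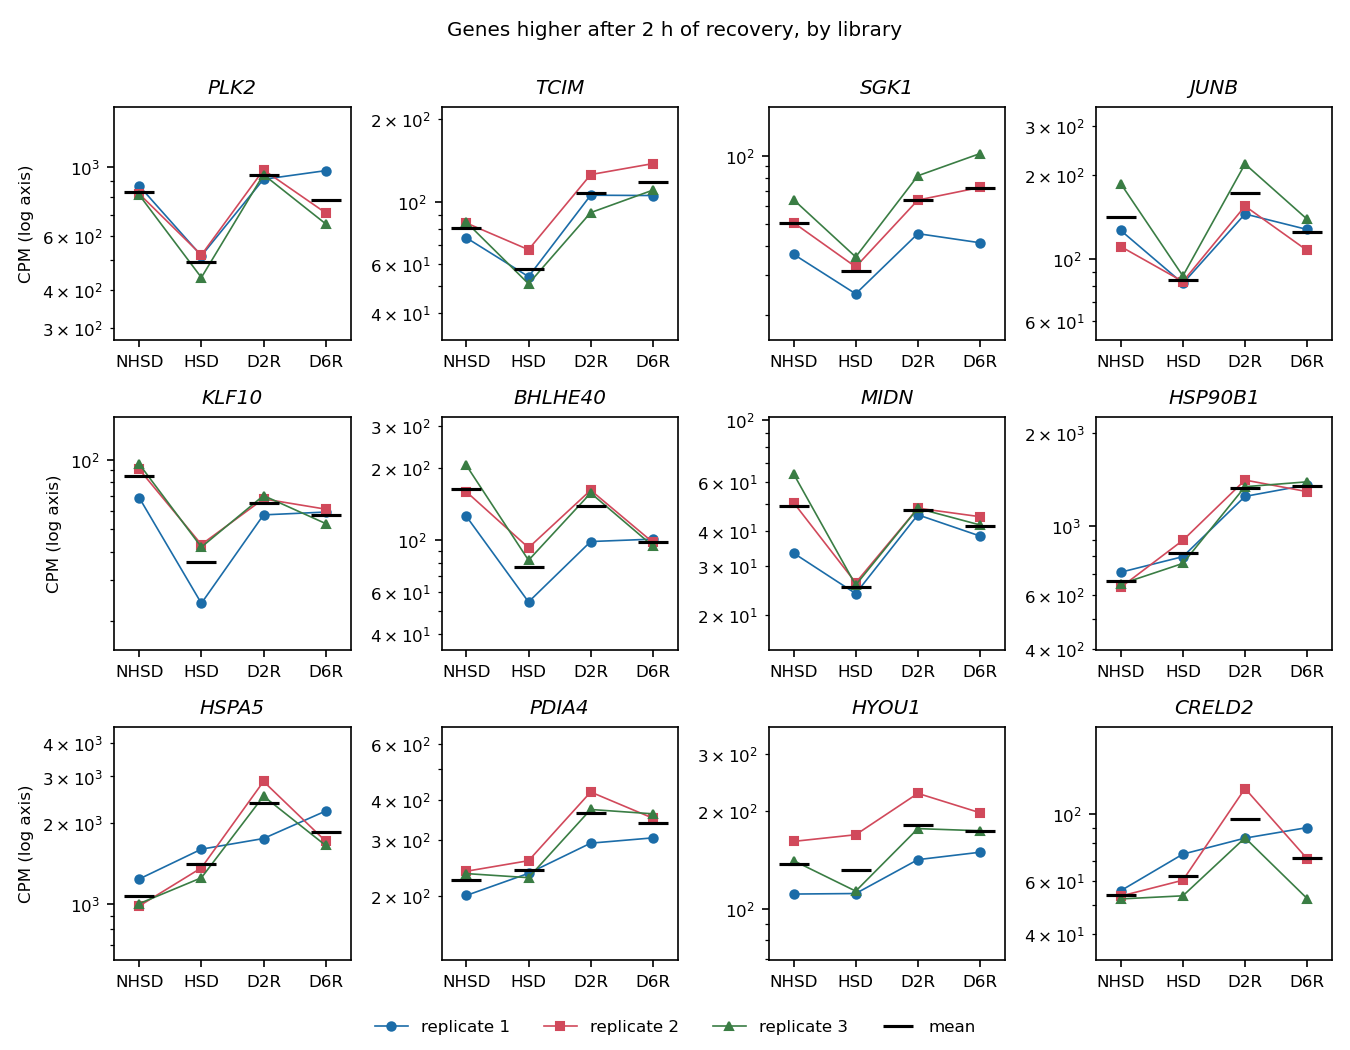
Level (CPM, log axis) of 12 genes called higher in D2R than in HSD, laid out by library as for the fallen genes, with means of 3 libraries as bars. PLK2, TCIM, SGK1, JUNB, KLF10, BHLHE40 and MIDN are lowest at the end of heat, whereas HSP90B1, HSPA5, PDIA4 and CRELD2 are higher in D2R than in NHSD.

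The third group was made of ER chaperones, which rose after the heat, 4 of them to levels called above those of unheated cells. Of 30 tested genes of ER protein folding and the unfolded protein response, 5 (HSPA5, HSP90B1, CRELD2, PDIA4 and HYOU1) were called higher and 0 lower. Over all tested genes 0.218% were called higher and 0.172% lower. The list's median was 0.17 beside -0.01 over all genes. HSP90B1, the HSP90 of the ER, had 796, 899 and 756 CPM in HSD and 1246, 1408 and 1339.9 CPM in D2R (0.71 ± 0.09, adjusted p 0.000372). Its D2R libraries all lay above the HSD ones and above the 663 ± 39.9 CPM of NHSD, the latter by 1.00 ± 0.09 log2 units (adjusted p 1.34e-05). After 6 h it was still at 1346 ± 49.9 CPM. At the end of heat HSP90B1 and HSPA5 were already above NHSD, by 0.30 ± 0.09 and 0.39 ± 0.15 log2 units. Neither was called (adjusted p 0.214 and 0.341), nor were CRELD2, PDIA4 and HYOU1 at 0.20, 0.10 and -0.08.

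HSPA5, known as BiP, the HSP70 of the ER and the sensor partner of the unfolded protein response, had 1601, 1362 and 1250.3 CPM in HSD and 1755, 2874 and 2530.4 CPM in D2R (0.79 ± 0.16, adjusted p 0.0225). D2R replicate 1 was only slightly above HSD replicate 1, a paired difference of 0.13, while those of runs 2 and 3 were 1.08 and 1.02. Against NHSD, at 1073 ± 143 CPM, HSPA5 was 1.18 ± 0.16 higher (adjusted p 0.00105). PDIA4, a disulfide isomerase, had 235, 258 and 228 CPM in HSD and 293, 423 and 373 CPM in D2R (0.58 ± 0.09, adjusted p 0.00273), and 225 ± 21.0 CPM unheated. It was 0.68 ± 0.09 above NHSD (adjusted p 0.00105).

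CRELD2, an ER-resident protein induced by ER stress, had 73.7, 60.4 and 53.6 CPM in HSD and 83.3, 122 and 83.4 CPM in D2R (0.63 ± 0.14, adjusted p 0.0473). It was 0.83 ± 0.14 above NHSD (adjusted p 0.00864). HYOU1, which exchanges the nucleotide of HSPA5, had 111, 169 and 113 CPM in HSD and 142, 227 and 177 CPM in D2R (0.47 ± 0.10, adjusted p 0.0439), and its groups overlapped, with replicate 2 high in both. The calls of HSP90B1 and PDIA4 held without any single library. That of HSP90B1 was lost without run 3 (adjusted p 0.104), and that of PDIA4 without run 2 or run 3 (0.191 and 0.238). HSPA5, CRELD2 and HYOU1 each lost the call without any 1 HSD library or D2R replicate 2 or 3 (adjusted p 0.0524 to 0.402). Without D2R replicate 1, 8 of the 30 genes were called higher. The 3 added ones were XBP1, the transcription factor of the response (0.54, adjusted p 0.0139), MANF (0.52, adjusted p 0.0389) and DNAJC3 (0.51, adjusted p 0.0473).

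The other 25 ER genes were not called with all libraries, among them SYVN1, the ubiquitin ligase of ER-associated degradation (0.57 ± 0.21, adjusted p 0.39). None of 19 tested genes of the integrated stress response was called, DDIT4, an inhibitor of mTOR signalling, having the estimate farthest from 0 (0.83 ± 0.22, adjusted p 0.178), and the list's median was -0.15. PTPN6, a tyrosine phosphatase that is no ER chaperone, shared the pattern of levels, with 23.2, 17.1 and 21.0 CPM in HSD, 26.3, 35.2 and 46.2 CPM in D2R and 16.9 ± 4.10 CPM in NHSD (0.79 ± 0.16, adjusted p 0.0344). Its call was lost without HSD replicate 2 or 3 or D2R replicate 2 or 3 (adjusted p 0.159 to 0.356).

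Set beside unheated cells, the 26 lower genes had a median D2R minus NHSD log2 difference of 0.01 and the 33 higher genes one of 0.17. Of the lower genes, HSPA6 (above NHSD) and TMEM209 (below it) were called different from NHSD, and of the higher genes HSP90B1, HSPA5, PDIA4, CRELD2 and PTPN6, all above it. In that comparison 0.224% of all tested genes were called, 0.165% higher and 0.0594% lower in D2R. The comparisons with NHSD and with HSD use the same D2R libraries, so these values are given side by side only.

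Several gene lists showed no called change. Over all tested genes 0.389% were called, so a list of this size would seldom hold a called gene. Estimates were above 0 in 47.0% of all tested genes. The proteasome subunits have been described, and 0 of 8 TRiC chaperonin genes (median -0.07), 0 of 9 mitochondrial chaperones (-0.03) and 0 of 13 genes of the mitochondrial genome (-0.02) were called. The medians of both mitochondrial lists turned to 0.02 and 0.03 when library size alone set the scale. Among 24 tested genes of cholesterol synthesis and uptake 23 had estimates below 0 with a median of -0.18, yet 0 were called; the one farthest from 0 was INSIG1, which holds back SREBP (-0.35 ± 0.20, adjusted p 0.673). Of 20 DNA replication genes 19 had estimates below 0 with a median of -0.16 (18 and -0.11 with library size alone), and 0 were called. Of 21 tested NF-kB feedback and inflammatory genes 0 were called, including the cytokines IL6 (1.05 ± 0.30, adjusted p 0.2) and LIF (1.10 ± 0.35, adjusted p 0.256). Over all 15158 genes 1341 had an unadjusted p under 0.05.

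**Figure D4:**
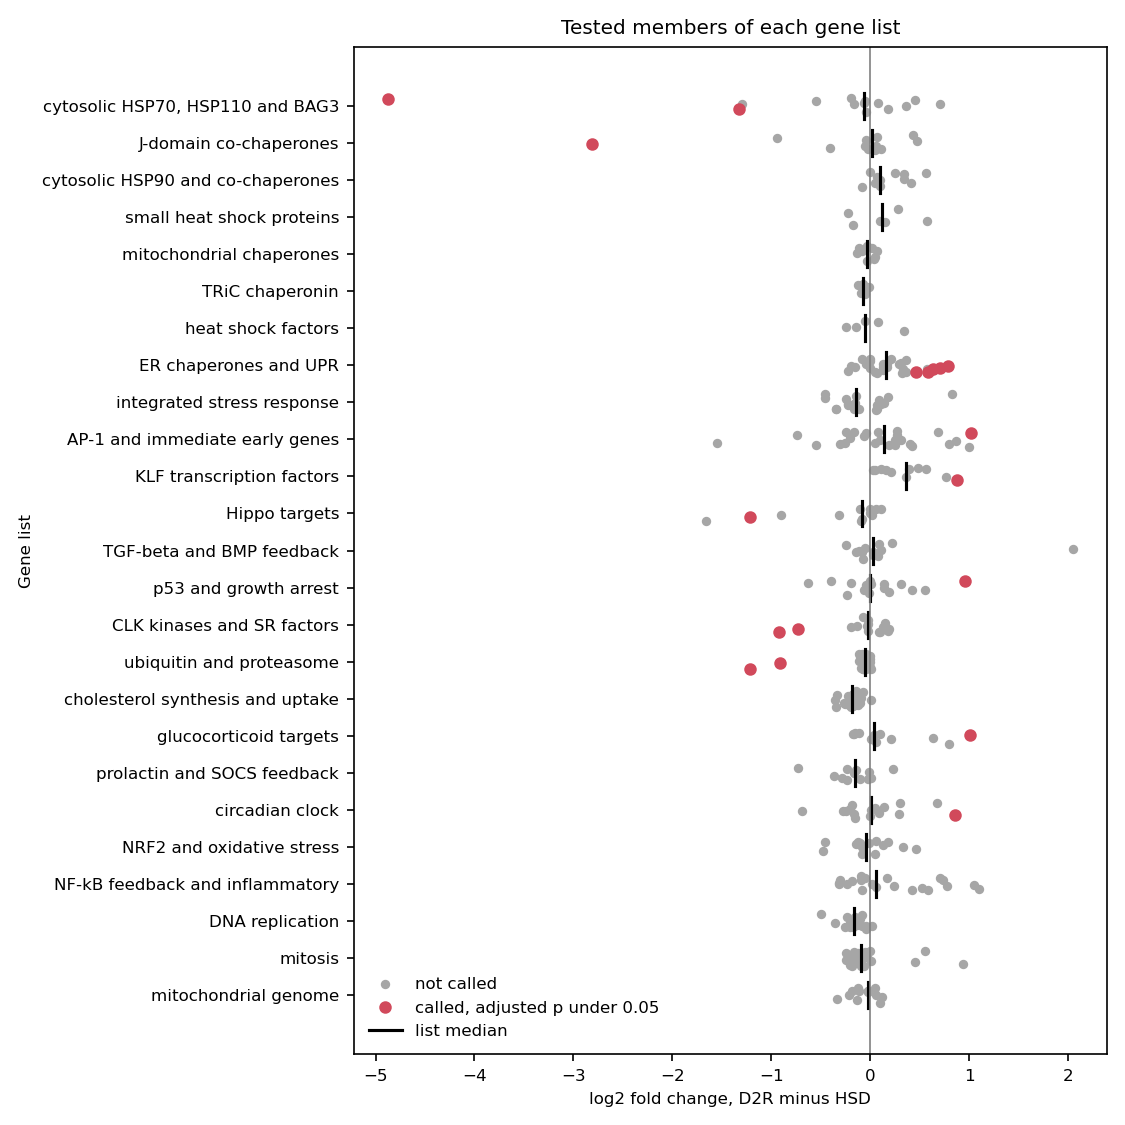
Log2 fold change from HSD to D2R for every tested member of 25 gene lists; red points were called, grey points were not and black bars are list medians. The called points are few and lie at or near the ends of their lists. Falls are in the HSP70, J-domain, Hippo, CLK and ubiquitin lists and rises in the ER, AP-1, KLF, p53, glucocorticoid and clock lists. The uncalled CYR61 lies beyond the called AMOTL2 in the Hippo list, and the uncalled SYVN1 beyond the called HYOU1 in the ER list.

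Heat in undifferentiated cells gave a measure of the heat response that shares no library with the recovery comparison. HSUD wells, however, lay on the same plate as HSD, and the runs were the same. Both comparisons also took the error of each gene from the same fit over all 18 libraries, so their calls are not independent. In undifferentiated cells, 58 genes (0.383%) were higher and 38 (0.251%) lower in HSUD than in NHSUD. Of the 26 genes lower in D2R than in HSD, 22 were called higher with heat there, which is 84.6% of the 26 and 37.9% of the 58. DNAJB1 was higher by 3.93, HSPA6 by 9.39, USPL1 by 1.39 and CLK4 by 1.21 on the log2 scale. The 4 that were not called are RNF227, FOXN2, CCNT1 and TMEM209, the last with an estimate of -0.08.

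Of the 33 genes higher in D2R, 14 were called lower with heat in undifferentiated cells, 42.4% of the 33 and 36.8% of the 38. KLF10 was lower there by a log2 difference of -1.35, BHLHE40 by -1.07, SGK1 by -0.99, JUNB by -0.93, TCIM by -0.71 and PLK2 by -0.70. Of the 26 lower genes 0 were called lower there, and of the 33 higher genes 0 were called higher. The 5 ER genes and PTPN6 were among those not called, with HSPA5 at 0.22 (adjusted p 0.563), HSP90B1 at 0.18 (adjusted p 0.426) and CRELD2 at 0.06 (adjusted p 0.882). Without the block 19 in place of 96 genes were called in that comparison.

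Of the 59 called genes, 9 carry only LOC identifiers, and 6 of these are small nucleolar RNAs (snoRNAs) in RefSeq. SnoRNAs guide chemical modification of ribosomal RNA and are mostly cut out of introns of host genes; they carry no poly-A tail, so in poly-A selected libraries their counts are low and may come from host introns. This group was examined after its values were seen. LOC112441682 and LOC112441683, which lie within HSPA8, were lower after 2 h: LOC112441682 had 1.76, 1.76 and 1.51 CPM in HSD and 0.281, 0.316 and 0.149 CPM in D2R (-2.74 ± 0.43, adjusted p 0.00273). The call of LOC112441682 held without any single library, and that of LOC112441683 (-2.07 ± 0.42, adjusted p 0.0258) was lost without any 1 of them (adjusted p 0.0692 to 0.154). Without run 2 the call of LOC112441682 was lost too (adjusted p 0.116). HSPA8 itself had the uncalled estimate of -0.55 given above.

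The other 4 called snoRNA features were higher. LOC112444391 had 0.870, 0.607 and 0.0901 CPM in HSD and 3.13, 1.88 and 1.54 CPM in D2R (2.13 ± 0.39, adjusted p 0.0112). LOC112443632 and LOC112443630 in SNHG3 rose by 1.98 and 1.85 (adjusted p 0.0102 and 0.042), and LOC112444961 in CSKMT by 1.70 (adjusted p 0.0445), while the hosts SNHG3 and CSKMT had estimates of 0.04 ± 0.14 and -0.09 ± 0.12. The calls of LOC112444391 and LOC112443632 were lost without HSD replicate 3 (adjusted p 0.0609 and 0.0571). LOC112443632 also lost it without HSD replicate 2 or D2R replicate 2 (0.0837 and 0.0629), and the remaining pair without most single libraries (0.0635 to 0.269). The other called LOC features were the long noncoding RNA LOC107131948 (0.97 ± 0.13, adjusted p 0.000372), LOC107131323, which overlaps RPS9 (0.91 ± 0.19, adjusted p 0.0439), and LOC100847567 (0.59 ± 0.13, adjusted p 0.0439). Unlike SNHG3 and CSKMT, LOC107131948 was itself called higher, and it overlaps snoRNA features that were not called. Among these were LOC112444965 (1.90) and LOC112444966 (0.70). LOC107131323 and LOC100847567 lost their calls without most single libraries (adjusted p 0.0742 to 0.391). Strand use in counting is not given in the sources used here, so reads of overlapping features cannot be told apart.

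Over all 166 tested snoRNA features, 143 (86.1%) had estimates above 0, as did 47.0% of all tested genes, and their median log2 fold change was 0.69 beside -0.01. Most were single small values: 4 were called higher and 2 lower, and 160 were not called. Their summed level was 86.8, 75.8 and 59.4 CPM in HSD and 136, 101.2 and 85.5 CPM in D2R, so D2R was the higher in each run although HSD replicate 1 lay above D2R replicate 3. Unheated NHSD cells had 110.4 ± 21.0 CPM and D6R cells 87.2 ± 32.0 CPM. In undifferentiated cells the heat estimates of the same features had a median of -0.63, with 132 of 166 below 0. Without D2R replicate 1 the share above 0 was 77.1% and the median 0.565, and with library size alone as the scale they were 86.7% and 0.734.

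**Figure D5:**
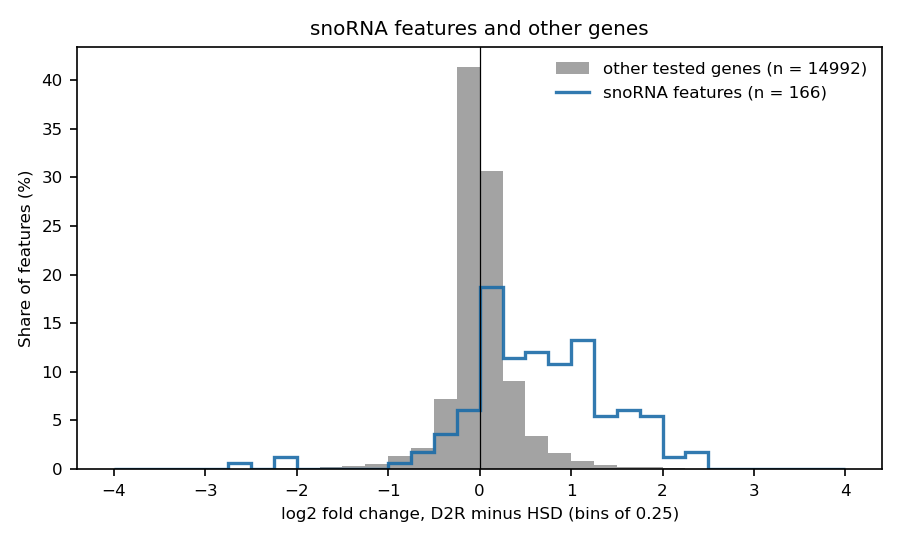
Share of features (%) by log2 fold change from HSD to D2R in bins of 0.25, for 166 snoRNA features (blue outline) and 14992 other tested genes (grey). The snoRNA features lie mostly right of 0, with a median of 0.69, and the other genes are centred on 0.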

How the data were processed

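Read counts per gene were deposited by the authors in a single table with 1 column per library, and 0 columns were left without a sample. Per the labels' protocols, the authors used fastp 0.23.2 for trimming and STAR 2.7.9a for alignment to ARS-UCD 1.3, and featureCounts 2.0.3 is named in the submitters' processing notes. The sources used here do not give annotation, strand or multi-mapping settings. Among counts from 1 to 19, 72.1% were even, so both mates of a pair may have been counted.

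From these counts, genes were filtered (filterByExpr, minimum count 10), scaled by TMM factors and fitted with edgeR 4.0.16 in R 4.3.3 over all 18 libraries, with group and run as terms and 10 residual degrees of freedom. The quasi-likelihood test was two-sided and robust, with Benjamini-Hochberg adjustment over 15158 genes. CPM values are scaled by the same factors, SE are of log2 fold changes taken from the F statistic, and values after ± beside CPM or percent are SD over 3 libraries. With 3 against 3 libraries the smallest exact permutation p is 0.1, so genes were tested through the model. P-values measure the spread between these libraries of 1 cell line.

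The replicate numbers stand for repeats of the whole experiment, per the labels. Deviations from group means correlated at 0.214 to 0.408 between HSD and D2R libraries of the same number and at most 0.101 between others, and at 0.0982 to 0.524 over 45 same-numbered pairs of all groups. No 2 libraries within HSD or within D2R were duplicates (chi-square per gene at least 65.5). Counts were also simulated for 15158 genes, with changes set only in genes of at least 5 CPM on average. For D2R against HSD, the fit recovered 53.7% of 1.5-fold, 97.0% of 2-fold and 98.5% of 4-fold changes, with 3 false among 169 calls. Recovery at lower levels was not measured. The simulated run differences were the same in all groups, so a library that stands apart, as D2R replicate 1 does, was not covered.

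The comparison, the 30 gene lists (452 genes, 419 tested) and the test were chosen with earlier results of these data known. Named genes were 8 heat and ER genes, the 15 highest and 15 lowest called genes of at least 5 CPM with a symbol, called list members and the 3 list members with the largest changes; FOS, DNAJA1, XBP1, MANF, DNAJC3, SYVN1, HSPA8, SNHG3, CSKMT and the LOC features were chosen after their values were seen. The values of 1 called gene are not reported here. Alternatives were no block, DESeq2 1.42.0, its size factors, library size alone, 2 other filters, the 6 libraries alone, stricter thresholds and leaving out libraries or runs. Names were looked up in RefSeq of ARS-UCD 2.0 (80.2% found). That build differs, so no coordinates or sequences were used.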

Additional observations from a re-analysis of the deposited data

How the results depend on the processing

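The replicate block decided most of the count: without it, 8 of the 59 genes were called, 1 ER gene in place of 5, and 19 genes in place of 96 in the heat comparison of undifferentiated cells. DESeq2 with the block called 162 genes, among them all 59. The HSD and D2R libraries alone gave 160, of which 51 were among the 59, with 3 ER genes higher and 1 cytosolic chaperone lower. HSPA6 and DNAJB1 were among the calls lost there. With no filter 100 genes were called and with a filter at 5 CPM 39, with 3 ER genes. A required doubling or halving (log2 fold change past 1 in size) gave 19, and an adjusted p under 0.01 gave 24. Leaving out 1 library or 1 run gave 22 to 71 called genes, 0 to 8 ER genes and 0 to 3 cytosolic chaperones. The lowest totals were without HSD replicate 3 (26), without run 2 (23) and without run 3 (22), and the highest without run 1 (71) and without D2R replicate 1 (70); the cause was not tested. Of the 59, 21 kept the call whichever library was left out and 11 also whichever run was, and CCDC117, USPL1, TCIM and PLK2 were called under all 17 settings. No called gene changed direction. BAG3, not called, ranged from -0.27 (without run 3) to 1.28 (without run 1) and was also below 0 without D2R replicate 3 (-0.06) and without run 2 (-0.07). SNHG3, not called, ranged from -0.11 (without D2R replicate 2) to 0.16 (without run 3) and was also below 0 without HSD replicate 1 (-0.09) and without run 2 (-0.07). Other scalings moved the median of all genes by under 0.1. Halved counts, an alternative chosen after seeing the data, gave 60. Depth limits the 166 snoRNA features, which together held 2635 to 6794 reads per HSD or D2R library.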
